A study of Mus musculus with 9 samples.

Results

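The cytosolic ribosomal protein genes were taken as every listed gene named Rpl or Rps with a number and an optional a, x or l ending, together with Rplp0, Rplp1, Rplp2 and Rpsa, and without names marked as pseudogene copies. This gave 88 of 43154 listed genes. Of these, 76 were core genes, with 42 of the large subunit, 31 of the small subunit and 3 of the P stalk. A further 7 were paralogs with their own name (Rpl3l, Rpl7l1, Rpl10l, Rpl22l1, Rpl36al, Rpl39l and Rps27l), and 5 were further copies, of which the GENCODE M21 annotation lists 4 as processed pseudogenes (Rps4l, Rps12l1, Rps3a2 and Rps3a3), while Rps12l2 had no match in it by name. The classes were drawn up after the names were seen, and Rpl13 was not analysed here.

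The study measured messenger RNA by sequencing in whole hearts of 9 C57BL/6 mice, which form 3 groups. The transgenic animals expressed calcineurin A, a calcium-activated phosphatase that causes hypertrophy of the heart, from the α-myosin heavy chain promoter of cardiomyocytes. They were given JIB-04, an inhibitor of Jumonji histone demethylases, at 50 mg/kg and 3 times a week from 4 weeks of age (2 hearts), or vehicle on the same schedule (3 hearts), and 4 hearts came from wild type mice given vehicle. JIB-04 heart 1, transgenic vehicle heart 1 and wild type hearts 1 and 2 were collected at day 125, and the other 5 hearts at day 158. Wild type mice given JIB-04 were not analysed here, so an effect of the compound in the absence of the transgene could not be measured.

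The ribosome builds proteins from messenger RNA: the small subunit decodes the message and the large subunit joins the amino acids, and each core ribosomal protein is normally present once per ribosome, apart from the paired stalk proteins. Rpl3 sits in the large subunit near the site where the peptide bond is formed. Rpl3l is its striated muscle paralog, which takes the place of Rpl3 in part of the ribosomes of adult heart and skeletal muscle, while Rpl3 serves the other tissues and growing muscle.

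Transcription of many ribosomal protein genes begins at a C followed by a run of C and T, the 5′ terminal oligopyrimidine (TOP) tract through which growth signals control their translation. The sequences around the RefSeq start (GRCm38.p6) are shown for the members called in transgenic vehicle hearts that have an entry. The group contains genes with and without such a run close to the annotated start. Each runs 5′ to 3′ over 40 bases of the gene's strand, and capitals mark a run of at least 5 C or T letters that starts with C within 5 bases of the annotated start.
Rps2, chr17:24720048-24720087, plus strand: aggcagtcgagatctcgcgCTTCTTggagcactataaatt
Rpl7a, chr2:26910792-26910831, plus strand: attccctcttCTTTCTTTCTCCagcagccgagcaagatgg
Rpl9, chr5:65391407-65391446, minus strand: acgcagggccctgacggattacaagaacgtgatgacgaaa
Rpsa, chr9:120127751-120127790, plus strand: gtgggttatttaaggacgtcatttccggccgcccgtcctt
Rpl10, chrX:74270801-74270840, plus strand: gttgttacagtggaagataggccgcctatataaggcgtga
Rpl3l, chr17:24727811-24727850, plus strand: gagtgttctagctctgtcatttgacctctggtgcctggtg

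Such a run was present for Rps2 and Rpl7a, which were lower in transgenic vehicle hearts, and was not in these windows for Rpl9, Rpsa or Rpl3l, which were lower too, or for Rpl10, which was higher. Of the 56 core genes with an entry, 27 had the run in at least 1 promoter. By promoter it was present in 29 of their 66, or 43.9%, against 18.3% of all 32851 promoters. Neither of the 2 listed starts of Rpl3l had it. A run further from the annotated start than the limit above was not counted, so a start annotated away from the true one would be missed. In the Rpl10 promoter, for example, the run ctcttttcc lies downstream of the window shown. Absence from a window therefore does not show that a gene lacks a TOP tract, and these counts depend on the annotated starts.

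The promoter of Rpl3l is shown because this gene changed most among the members. It spans chr17:24727576-24727875 (GRCm38.p6, plus strand), with 250 bases before the start and 50 from it on. Capitals mark matches to CANNTG, the E-box bound by basic helix-loop-helix factors, and to AGATAA on either strand, a GATA-type motif.
Rpl3l promoter: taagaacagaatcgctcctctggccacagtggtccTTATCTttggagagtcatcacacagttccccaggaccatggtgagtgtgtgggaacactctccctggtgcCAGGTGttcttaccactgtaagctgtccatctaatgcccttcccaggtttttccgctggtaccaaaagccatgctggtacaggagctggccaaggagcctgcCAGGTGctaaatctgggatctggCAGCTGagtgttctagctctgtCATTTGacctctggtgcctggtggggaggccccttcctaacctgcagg
CANNTG matched at 4 places and AGATAA at 1, on the minus strand, and the 2 motifs did not overlap here. Their shares among all promoters were 72.3% and 11.2%, and a motif of the MEF2 type, held by 3.69% of all promoters, had no match here.

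FPKM counts the fragments of a gene per kilobase of its transcript, scaled to all mapped fragments of the heart, so levels can be compared between genes. A log2 fold change here is a difference of group values on the log2(FPKM + 1) scale. The core genes spanned 8.67-fold in transgenic vehicle hearts and 9.27-fold in wild type hearts by group mean. Rplp1, an acidic stalk protein that helps recruit elongation factors, stood highest at a mean of 711 FPKM over the 9 hearts, followed by Rpl41 and Rps2, and Rpl39 was lowest at 78.7 FPKM. Tests were limited to genes that reached 1 FPKM in 2 or more hearts, which kept all 76 core genes, 5 paralogs and all 5 further copies. Rpl10l, a paralog known from testis, was listed at 0 in all hearts, and Rpl39l reached 0.720 FPKM at most, in JIB-04 heart 1.

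Rpl3l was lower in every transgenic heart than in every wild type heart, and Rpl3 was higher. Rpl3l stood at 49.1 and 21.6 FPKM in JIB-04 hearts 1 and 2, at 46.3, 31.4 and 22.7 FPKM in transgenic vehicle hearts 1 to 3, and at 220, 212, 170 and 187 FPKM in wild type hearts 1 to 4. Rpl3 stood at 236.4 and 235.9 FPKM in JIB-04 hearts, at 226, 239 and 267 FPKM in transgenic vehicle hearts, and at 127, 130, 113 and 139 FPKM in wild type hearts. Neither gene overlapped between the transgenic and the wild type hearts, whichever treatment the transgenic mice had.

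In the fit over all 13487 tested genes (limma, adjusted for day of collection, with Benjamini-Hochberg adjustment), Rpl3l was lower in transgenic vehicle than in wild type hearts by a log2 fold change of -2.47 ± 0.18 (SE), with an adjusted p of 5.0e-05. This was the 21st lowest fold change of all tested genes. Rpl3 was higher by 0.93 ± 0.09 on the same scale, with an adjusted p of 0.00023. Both calls held under all 24 alternatives tried for each, in which Rpl3l lay between -2.70 and -2.25 and Rpl3 between 0.84 and 1.15. On day 125 alone the Rpl3l fold change was -2.20, and on day 158 alone it was -2.70.

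**Figure D1:**
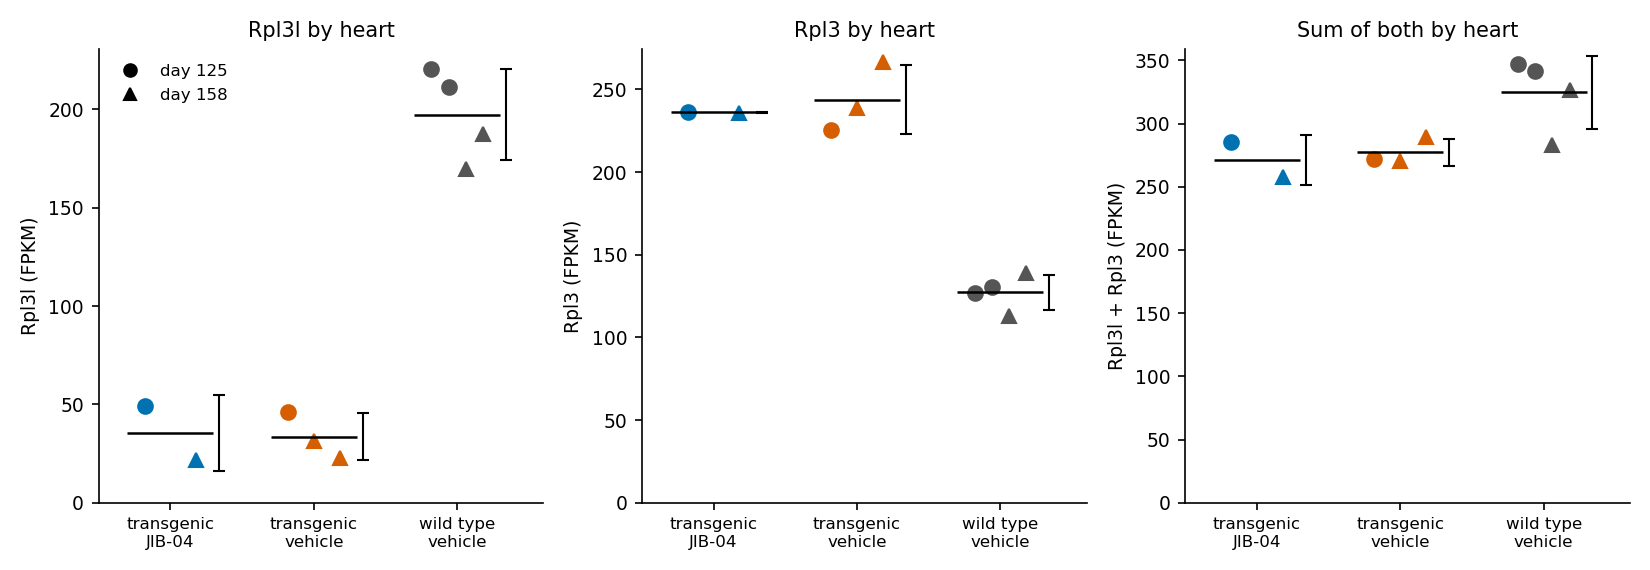
Rpl3l, Rpl3 and their sum in FPKM (vertical axes, from 0) for each heart, by group (horizontal axis); circles are day 125 and triangles day 158, the line is the group mean and the bar 1 SD. Rpl3l averaged 35.4 FPKM in JIB-04, 33.5 in transgenic vehicle and 197 in wild type hearts, Rpl3 averaged 236, 244 and 127 FPKM in the same order, and the sum averaged 271, 277 and 325 FPKM.

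The 2 genes exchanged places as the more abundant form. Rpl3l made up 17.2% and 8.39% of their sum in JIB-04 hearts, 17.04%, 11.6% and 7.83% in transgenic vehicle hearts, and 63.5%, 61.9%, 60.0% and 57.4% in wild type hearts. The log2 ratio of Rpl3l to Rpl3 averaged -2.92 ± 0.64 in transgenic vehicle hearts (SD, n = 3) and 0.63 ± 0.16 in wild type hearts (SD, n = 4), an 11.7-fold lower ratio, with an exact two-sided permutation p of 0.0286, the smallest that 35 splits allow (0.0429 adjusted over the 3 ratio tests). With the 5 transgenic hearts in 1 group, the difference from the 4 wild type hearts in the log2 ratio was -3.53, with an exact permutation p of 0.00794, the smallest possible (0.0238 adjusted). A ratio within a heart does not depend on how hearts are scaled to each other.

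The sum of both forms differed less. It averaged 277 ± 10.5 FPKM in transgenic vehicle hearts (SD, n = 3) and 325 ± 29.1 FPKM in wild type hearts (SD, n = 4), and the ranges, 270 to 289 and 283 to 347 FPKM, overlapped. Relative to the median core gene of the same heart, the sum was 1.03 ± 0.10 in transgenic vehicle and 1.07 ± 0.09 in wild type hearts. Thus, as a description, the 2 genes together stayed near the level of a typical core gene in both groups while their proportions differed.

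A part of the Rpl3 reads could belong to its copies: the 2 listed pseudogenes of Rpl3 summed to 44.1 to 52.3 FPKM in transgenic vehicle hearts and 17.3 to 25.1 FPKM in wild type hearts. Rpl3l had no listed pseudogene and no exon overlap with another gene. In bulk tissue, fewer cells of a type and less RNA per cell cannot be told apart. The 10 cardiomyocyte markers, all detected, summed to 14747 to 16115 FPKM in transgenic vehicle hearts and 18133 to 20579 FPKM in wild type hearts, with 1 higher and 5 lower. The 10 fibroblast markers summed to 760 to 781 FPKM in transgenic vehicle hearts and 343 to 434 FPKM in wild type hearts, with 5 higher and 0 lower. Of the endothelial markers 7 of 10 were lower, of those of smooth muscle and pericytes 2 of 9 were higher and 5 lower, and of those of macrophages and leukocytes 0 of 9 were called. Of 9 skeletal muscle markers 3 were tested and 2 were lower, Ckm, the muscle creatine kinase that heart muscle also expresses, and Tnni2. Their list summed to 490 to 723 FPKM in transgenic vehicle hearts and 1223 to 1419 FPKM in wild type hearts, nearly all of it Ckm, while Tnni2 averaged 0.130 FPKM in transgenic vehicle hearts and 1.86 FPKM in wild type hearts. Myh6, whose promoter drives the transgene, stood at 2220, 2073 and 705 FPKM in transgenic vehicle hearts 1 to 3 and between 2936 and 3365 FPKM in wild type hearts, and transgenic vehicle heart 3 also had the least Rpl3l of its group. The part of these markers in the Rpl3l and Rpl3 differences was not tested.

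The other ribosomal protein genes had smaller fold changes between transgenic vehicle and wild type hearts. Of the 86 tested members, 2 were called higher and 6 lower, or 9.3%, against 36% of all tested genes (20.3% higher and 15.7% lower). The members' share was thus below that of the genes as a whole. The core median log2 fold change was -0.06, against 0.05 for all tested genes. These small shifts depend on how hearts are scaled: with equal totals 8 members were higher and 1 lower, with median of ratios 2 and 18, and with quantile normalization 5 and 3. With equal totals the core median was 0.16, and among all tested genes the calls divided into 4503 higher and 1004 lower, against 2739 and 2123 as deposited. Among all tested genes they were 2354 and 2523 with median of ratios and 2260 and 2521 with quantile normalization. The 8 calls became 4 without transgenic vehicle heart 1, 13 without transgenic vehicle heart 2, 4 without wild type heart 1 and 5 without wild type heart 4. In the same order, the calls among all tested genes were 1972 higher and 1376 lower, 2339 and 2167, 2224 and 1818, and 2056 and 1623. Beside Rpl3, the rise called here was that of Rpl10, the protein that joins the large subunit late in its assembly and completes its functional core.

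Rpl10 stood at 470.5, 470.5 and 549 FPKM in transgenic vehicle hearts and at 382, 431, 361 and 357 FPKM in wild type hearts, so the groups did not overlap. Its log2 fold change was 0.39 ± 0.09 (limma adjusted p 0.0126). The call was lost on day 158 hearts alone (adjusted p 0.064). The 5 listed pseudogenes of Rpl10 summed to 99.0 to 113 FPKM in transgenic vehicle hearts and 61.1 to 95.2 FPKM in wild type hearts, so reads of near-identical copies leave its level uncertain.

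Rps2, a small subunit protein near the entry of the messenger RNA channel, stood at 519, 486 and 343 FPKM in transgenic vehicle hearts and at 696, 701, 558 and 641 FPKM in wild type hearts. It was lower by a log2 fold change of -0.50 ± 0.12 (limma adjusted p 0.0125), and the groups did not overlap. Scaling all hearts to equal totals reduced this to -0.28 and ended the call (adjusted p 0.194). Exons of Rps2 overlap the antisense gene Snhg9 and the small nucleolar RNA Snora64, and the library kit did not keep strand, so their reads cannot be told from those of Rps2. Rps2 lies upstream of Rpl3l on the same strand of chromosome 17, at chr17:24718116-24721929 against chr17:24727820-24736143 for Rpl3l.

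The remaining 4 called members fell by smaller amounts. Rpsa, a small subunit protein also known as the laminin receptor precursor, stood at 165, 165 and 137 FPKM in transgenic vehicle hearts and 212, 215, 174 and 183 FPKM in wild type hearts. Its log2 fold change was -0.30 ± 0.08 (limma adjusted p 0.0206). Those of the large subunit proteins Rpl36, Rpl7a and Rpl9 were -0.26, -0.23 and -0.23. Each of these 4 lost its call under at least 8 of 24 alternatives, among them scaling to equal totals and day 158 hearts alone.

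**Figure D2:**
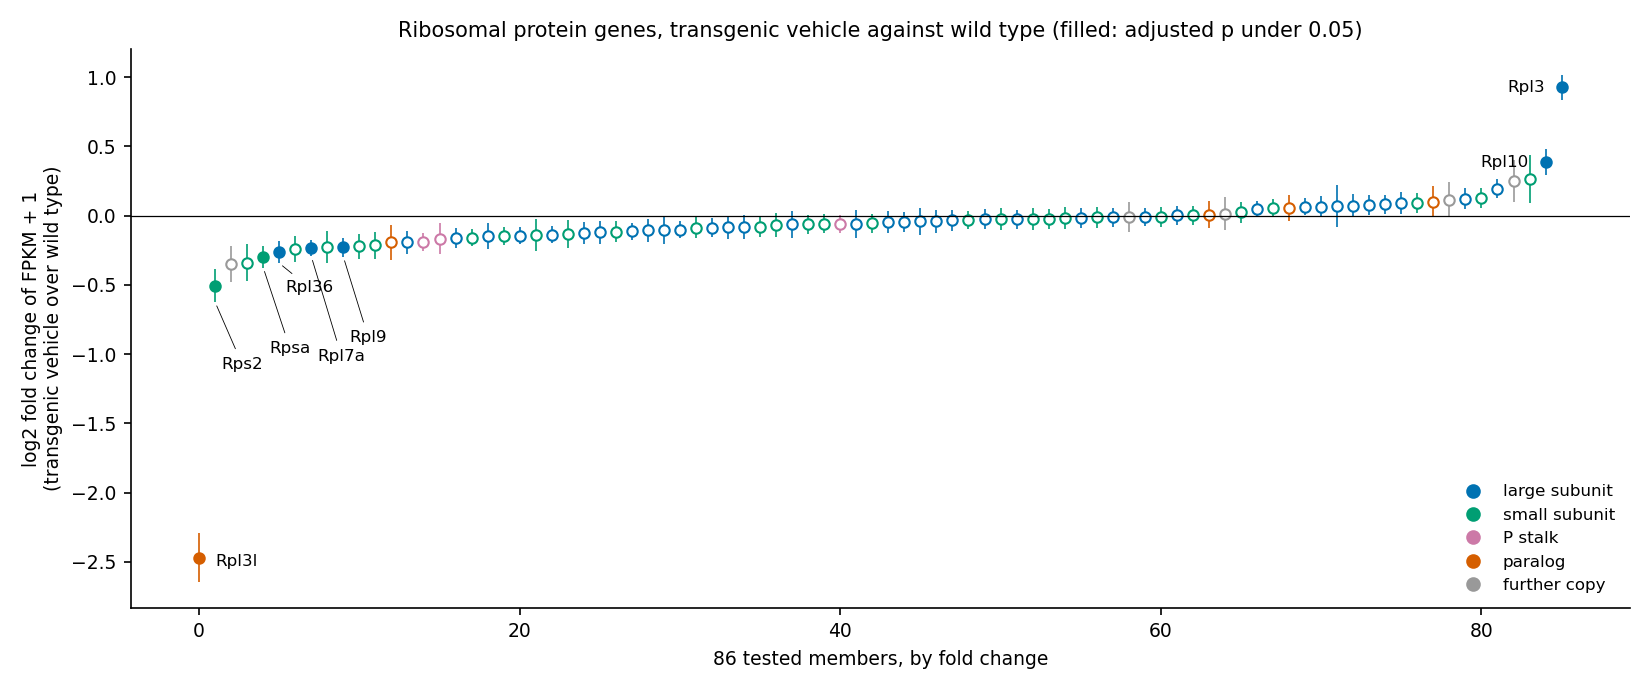
Log2 fold change of FPKM + 1 between transgenic vehicle and wild type hearts (vertical axis) for the 86 tested members in order of fold change (horizontal axis), with bars of 1 SE; colours give the class and filled points have an adjusted p under 0.05. Rpl3l at -2.47 and Rpl3 at 0.93 stand apart from the other members, which lie between -0.50 and 0.39.

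Judged heart by heart, 13 members were lower in every transgenic vehicle heart than in every wild type heart and 2 were higher, or 15.1% and 2.33% of 86, against 17.7% and 23.4% of all tested genes. The 2 were Rpl3 and Rpl10. Beside the 6 called members, the lower set included Rplp0, Rpl8, Rpl23a, Rps3, Rps10 and Rps21. Rplp0, the protein that anchors the stalk, stood at 375, 385 and 382 FPKM in transgenic vehicle hearts and 463, 460, 427 and 404 FPKM in wild type hearts, with a log2 fold change of -0.19 ± 0.06 that did not pass the threshold (limma adjusted p 0.0506). The log2 fold changes of the other stalk proteins, Rplp1 and Rplp2, were -0.06 and -0.17, also not past it.

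Among the paralogs, Rpl3l was the only tested one that passed in this comparison. Rpl22l1, the paralog of Rpl22, had a log2 fold change of -0.19, and Rpl22 itself one of 0.09. The values were 0.10 for Rps27l, a paralog of Rps27 induced by p53, and 0.26 for Rps27. They were 0.06 and 0.07 for Rpl36al and Rpl36a, and 0.01 and -0.03 for Rpl7l1 and Rpl7. No such pair other than Rpl3l and Rpl3 showed 2 called members in opposite directions.

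The further copies reached levels that varied widely. Rps12l1 stood at 58.9 to 109 FPKM and Rps3a2 at 89.9 to 130 FPKM over the 9 hearts, while Rps12l2 stayed between 0.468 and 1.04 FPKM. Reads of these copies can be hard to tell from those of Rps12 and Rps3a1, so their split is uncertain. None of the 5 was called, and their log2 fold changes ran from -0.35 for Rps4l to 0.25 for Rps12l1.

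**Figure D3:**
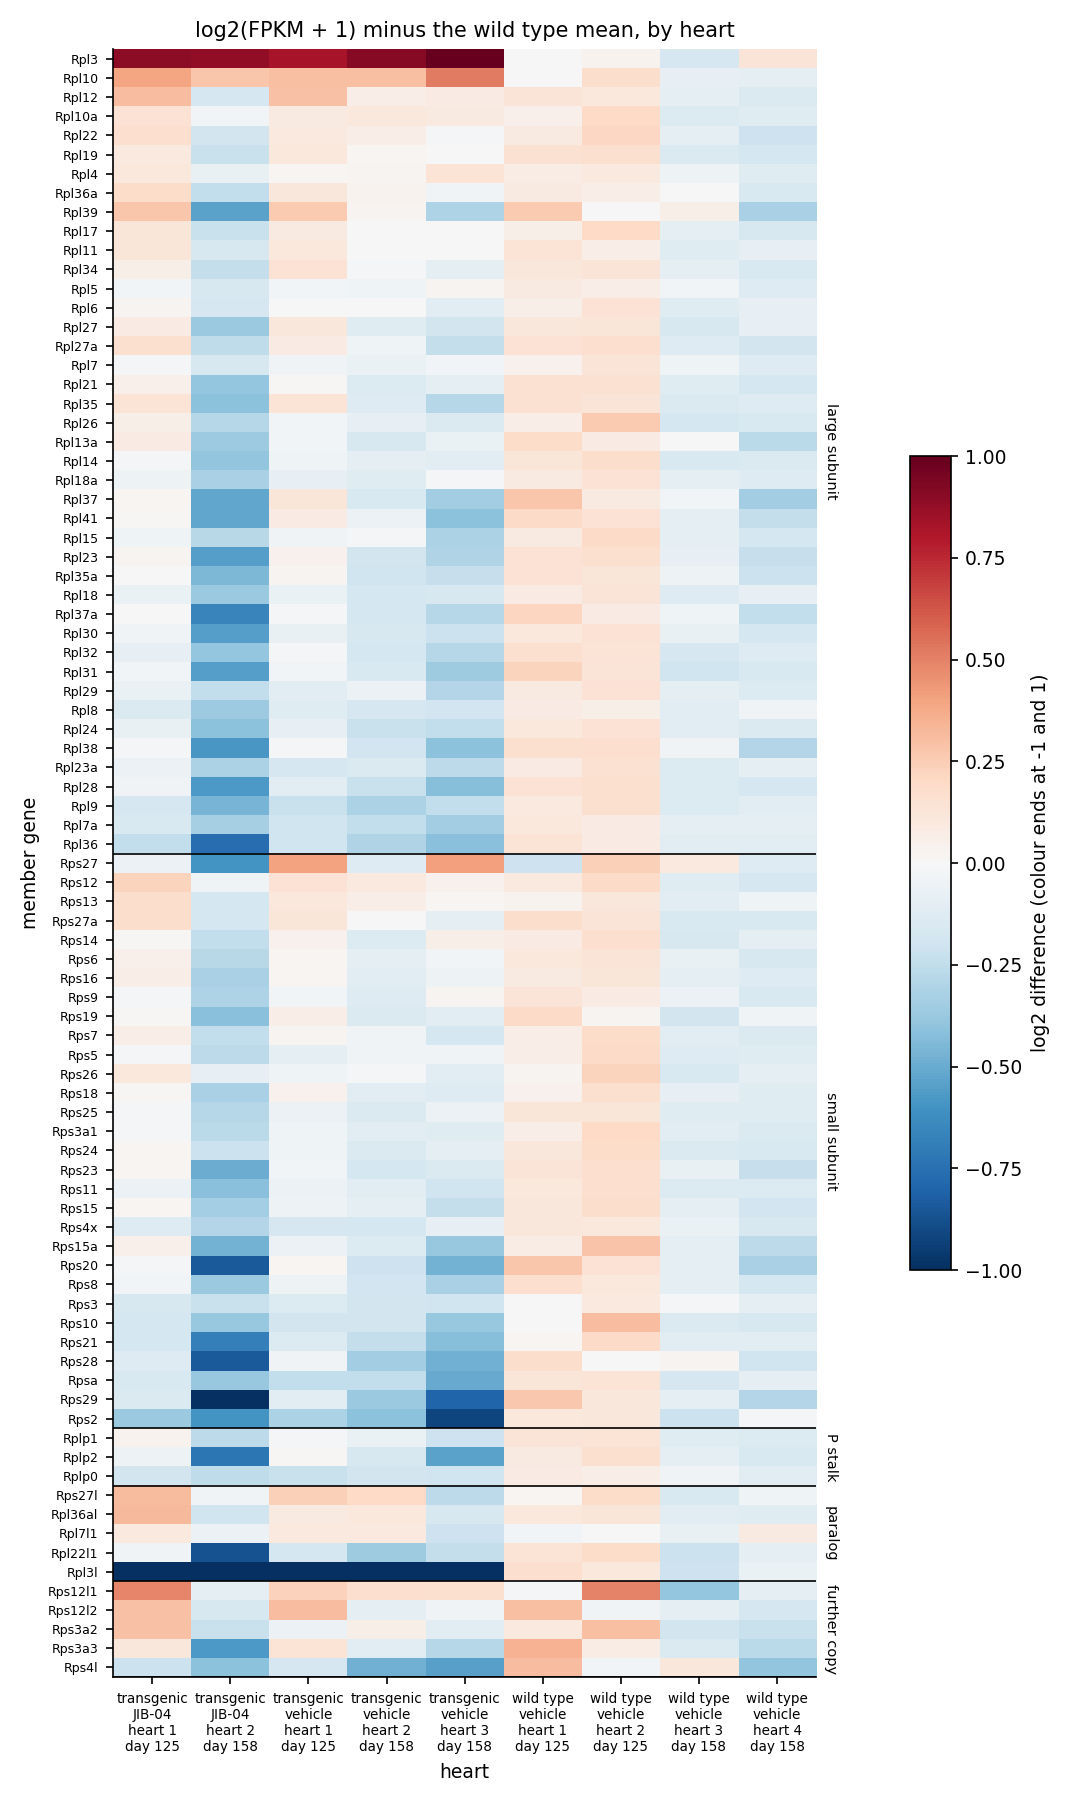
Log2(FPKM + 1) of the tested members, all but 1, minus each gene's wild type mean (colour, ending at -1 and 1), with genes in rows by class and hearts in columns by group. Rpl3l is below the wild type mean and Rpl3 above it in all 5 transgenic hearts, and most members are lower in hearts of day 158 than of day 125, most of all in JIB-04 heart 2.

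JIB-04 did not change a member detectably in transgenic hearts. In the limma fit 0 of 86 members were called against transgenic vehicle hearts, against 0.00741% of all tested genes, which is 1 gene, and 2 members had an unadjusted p under 0.05. The log2 fold change of Rpl3l was -0.08, with a 95% interval from -0.57 to 0.41, and that of Rpl3 was -0.04, with an interval from -0.29 to 0.21 (limma adjusted p 0.987 for both). The interval of Rpl3l thus leaves room for changes of either sign that are well short of the -2.47 between transgenic vehicle and wild type hearts. The log2 ratio of Rpl3l to Rpl3 averaged -2.86 ± 0.84 in JIB-04 hearts (SD, n = 2) and -2.92 ± 0.64 in transgenic vehicle hearts (SD, n = 3), and the exact permutation p was 0.7, where 0.1 is the smallest that 10 splits allow.

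The members with an unadjusted p under 0.05 were Rps27 and Rpl36. Rps27, a zinc-binding small subunit protein, stood at 160 and 109 FPKM in JIB-04 hearts and at 220, 152 and 222 FPKM in transgenic vehicle hearts, so the groups overlapped. Rpl36 stood at 376 and 263 FPKM in JIB-04 hearts and at 388, 363 and 333 FPKM in transgenic vehicle hearts, which overlapped as well. Of the 86 members 78 had a log2 fold change below 0, and the core median was -0.10, against -0.01 for all tested genes. Without JIB-04 heart 2 the core median was -0.03. Of the 86 members 0 were higher and 0 lower in every JIB-04 heart than in every transgenic vehicle heart, against 5.55% and 6.88% of all tested genes.

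**Figure D4:**
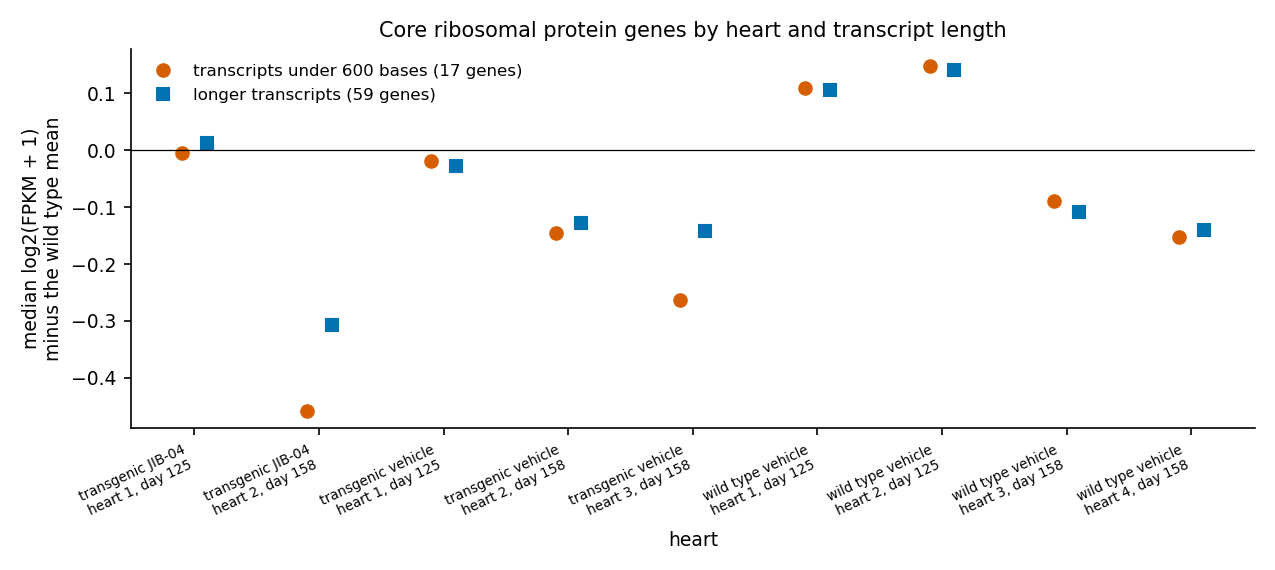
Median over core genes of log2(FPKM + 1) minus the wild type mean (vertical axis) in each heart (horizontal axis), for the 17 genes with transcripts under 600 bases (circles) and the other 59 (squares). In JIB-04 heart 2 the short transcripts lay at -0.46 and the longer ones at -0.31, in transgenic vehicle heart 3 at -0.26 and -0.14, and in the other hearts both kinds were within 0.02 of each other.

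JIB-04 heart 2 and transgenic vehicle heart 3 stood apart in 2 respects. Their short core transcripts were lower than their longer ones, by a length limit chosen after the data were seen, and their mitochondrial genes took the largest shares of summed FPKM, 30.9% and 29.8%, against at most 26.3% in the other hearts. Without both hearts the counts of members called were 0 for JIB-04 against transgenic vehicle hearts and 8 for transgenic vehicle against wild type hearts. The part of transcript length in the results was not tested.

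Set against wild type hearts, the JIB-04 hearts shared the Rpl3l and Rpl3 pattern, with the wild type hearts used in both comparisons. Rpl3l had a log2 fold change of -2.55 ± 0.20 (limma adjusted p 9.7e-05) and Rpl3 one of 0.89 ± 0.10 (limma adjusted p 0.00055). In all, 2 members were higher, Rpl3 and Rpl10, and 19 lower, or 24.4% of 86, against 32.3% of all tested genes (17.4% higher and 14.8% lower). The lower ones beside Rpl3l had log2 fold changes from -0.57 for Rps29 to -0.22 for Rplp0, and included Rplp2, Rpl22l1, Rpl36, Rps2, Rps20, Rps21, Rps28, Rpl7a, Rpl8, Rpl9, Rpl18, Rpl24, Rpl28, Rpl30, Rpl31 and Rpl32.

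This count of 21 moved with the scaling, the model and single hearts. It was 3 with equal totals, 39 with median of ratios, 7 with quantile normalization and 3 with no term for day. Calls among all tested genes moved too, from 2353 higher and 2001 lower to 2925 and 1065 with equal totals. They were 2098 and 2329 with median of ratios, 2005 and 2220 with quantile normalization, and 2069 and 1669 with no term for day. With no variance trend they were 2361 and 1958, little changed, while the members called fell from 21 to 13. With no filter 12 members were called, against 2181 and 1747 of all 25720 genes tested. Equal totals leaving out mitochondrial and the 20 highest genes gave 13 members, against 2989 and 1701 of all tested genes. Leaving out the members as well gave 13, against 2935 and 1717. Rps29, a short zinc-binding small subunit protein, stood at 290 and 160 FPKM in JIB-04 hearts 1 and 2 and at 388, 347, 301 and 261 FPKM in wild type hearts, so that JIB-04 heart 1 lay within the wild type range. Without wild type hearts 1 to 4 in turn the count of members was 6, 9, 8 and 6. Among all tested genes 1856 to 1985 were then higher and 1610 to 1661 lower. Without transgenic vehicle hearts 1 to 3 in turn, 2161, 2374 and 2865 of all tested genes were higher and 1904, 2081 and 2457 lower. With 1 JIB-04 heart left, the core median was -0.10 without heart 2 and -0.24 without heart 1, against -0.17 with both. Without JIB-04 heart 2 and transgenic vehicle heart 3 the core median was -0.11.

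Nearly all members had lower values on day 158 than on day 125, by amounts that the test did not call. In the limma fit, 0 members were called between day 158 and day 125, against 0.378% of all tested genes (0.156% higher and 0.222% lower), but 75 of 86 had an unadjusted p under 0.05 and 85 of 86 a log2 fold change below 0, against 2534 and 7554 of all 13487 tested genes. The core median was -0.23, against -0.03 for all tested genes. Over 21 alternatives this core median lay between -0.31 and -0.08. The summed core level was 18205 to 21372 FPKM in the 5 hearts of day 158 and 22696 to 25465 FPKM in the 4 hearts of day 125, without overlap. As a share of the FPKM outside mitochondrial genes the days just overlapped, with 3.81% to 4.272% on day 158 and 4.268% to 4.70% on day 125. In 20 of 21 alternatives 0 members were called, and without transgenic vehicle heart 2 the count was 11. The share called among all tested genes without that heart is not given here, so this count cannot be set against it. This comparison was added after the data were seen.

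Rpl3l had the lowest fold change of all tested members with day, -0.63 on the log2 scale ± 0.16 (limma adjusted p 0.098), while Rpl3 was at 0.03 ± 0.08. In every group the hearts of day 158 had a smaller Rpl3l share of the Rpl3l and Rpl3 sum than those of day 125. Whether a member's group effect differed between the days could not be decided. The JIB-04 group held 1 heart on each day and the transgenic vehicle group 1 heart on day 125. For Rpl3l in JIB-04 against wild type hearts, the effect was -2.99 on day 158 and -2.11 on day 125, each from 1 JIB-04 heart.

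Many genes that build ribosomes rose in transgenic vehicle hearts. Over 4 lists for RNA polymerase I, small nucleolar ribonucleoproteins and the assembly of both subunits, 37 of 91 tested genes were higher than in wild type hearts and 3 lower. This was 44% called in either direction, against 36% of all tested genes (20.3% higher and 15.7% lower). The median log2 fold change was 0.26, against -0.06 for the core ribosomal proteins and 0.05 for all tested genes. The difference between the 2 sets was not tested. Nop58, a core protein of the particles that methylate ribosomal RNA, averaged 19.7 ± 0.34 FPKM in transgenic vehicle hearts and 10.7 ± 1.95 FPKM in wild type hearts, a log2 fold change of 0.84 ± 0.13 (limma adjusted p 0.0020). The count of ribosome production genes called was 4 on day 158 hearts alone, where fewer hearts were compared. Of all 13043 genes tested there, 693 were higher and 524 lower, so the called share of these lists was below that of all genes.

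**Figure D5:**
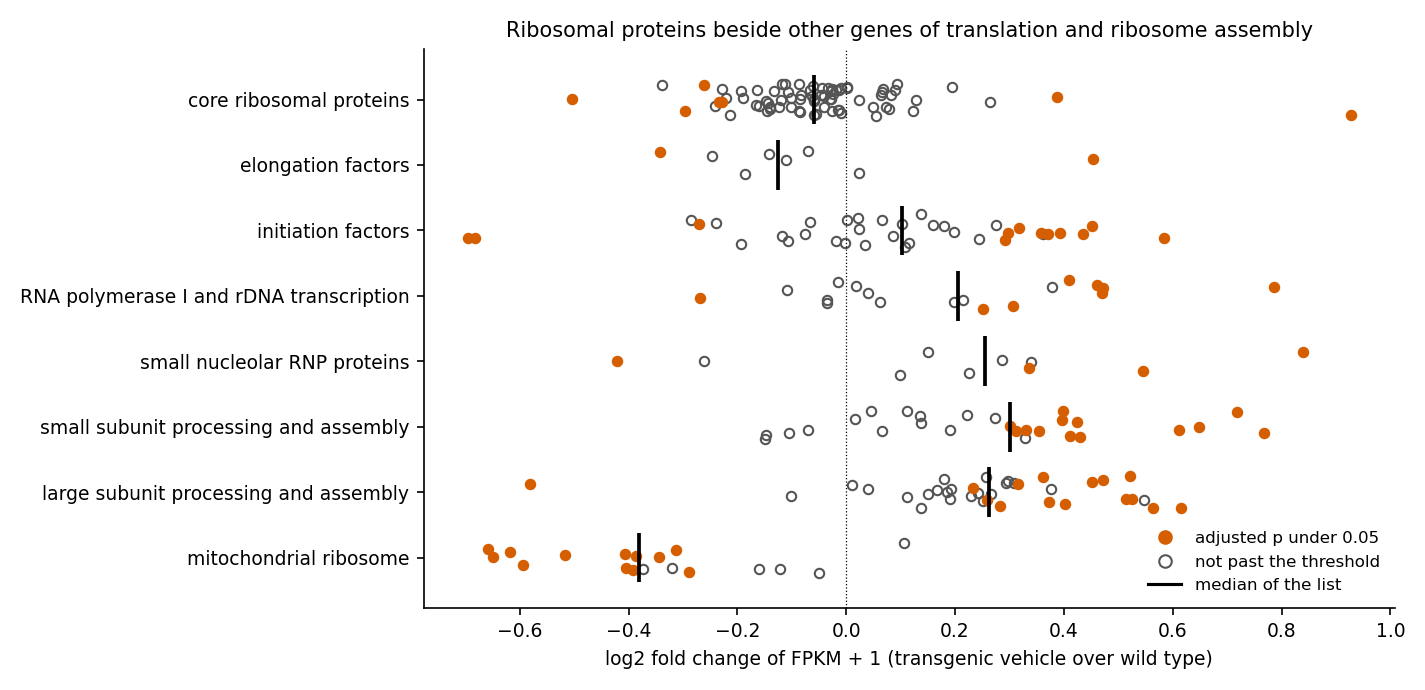
Log2 fold change of FPKM + 1 between transgenic vehicle and wild type hearts (horizontal axis) for each tested gene of 8 lists (rows); filled points have an adjusted p under 0.05 and the bar is the median. The core ribosomal proteins centre on -0.06, the 4 lists of ribosome production between 0.21 and 0.30, and the list of 18 mitochondrial ribosome genes on -0.38.

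By list, the called shares stood between 40% and 48.1%, against the same 36% of all tested genes. For small subunit assembly 13 of 27 genes were higher and 0 lower, led by Rrp12 (log2 fold change 0.77), Tsr1 (0.72) and Wdr75 (0.65). For large subunit assembly 14 of 36 were higher and 1 lower, led by Gnl3, or nucleostemin (0.62), and Bop1 (0.56), with the helicase Ddx51 lower (-0.58). For RNA polymerase I, which transcribes ribosomal RNA genes, 7 of 18 were higher and 1 lower, led by Taf1d (0.79). For the small nucleolar particles 3 of 10 were higher and 1 lower, a called share of 40% that is near the 36% of all tested genes.

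Translation factors gave a mixed picture. Eef1a1, the general form of the factor that brings transfer RNA to the ribosome, averaged 531 ± 83.2 FPKM in transgenic vehicle hearts and 386 ± 30.6 FPKM in wild type hearts (log2 fold change 0.45 ± 0.11, limma adjusted p 0.0168). Its adult muscle form Eef1a2 averaged 618 ± 63.2 FPKM in transgenic vehicle hearts and 652 ± 54.1 FPKM in wild type hearts and was not called (limma adjusted p 0.595), with a fold change near 0 whose sign turned with the scaling. This second pair of a muscle and a general form thus did not show a called exchange, since only Eef1a1 passed. The ratio of this pair was not tested. Eef1a1 kept its call under 20 of 24 alternatives and lost it with the replicate number as a block (limma adjusted p 0.104). Among 37 initiation factors 9 were higher, led by Eif3a (0.58), and 3 lower, led by Eif4ebp2 (-0.69), a binder of the cap-binding protein, and Eif4e (-0.68), the cap-binding protein itself. The called share of 32.4% was near the 36% of all tested genes.

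A contrast list of 18 mitochondrial ribosome genes went the other way, with 0 higher and 12 lower in transgenic vehicle hearts, led by Mrpl12 (log2 fold change -0.66). Among all tested genes 20.3% were higher and 15.7% lower. With equal totals the count called in this list was 1, against 4503 higher and 1004 lower of all 13526 tested genes. Of the 15 genes that control ribosome production, 2 were higher, Myc and Mdm2, and 2 lower, Akt1 and Tsc2, a called share of 26.7% that was below the 36% of all tested genes. Mdm2 kept its call under 14 of 24 alternatives. Myc, a transcription factor that activates genes of ribosome production, stood at 4.74, 8.95 and 7.51 FPKM in transgenic vehicle hearts and at 1.81, 1.02, 2.34 and 0.834 FPKM in wild type hearts (log2 fold change 1.65 ± 0.23, limma adjusted p 0.0013). In JIB-04 against transgenic vehicle hearts, 0 genes of these lists were called.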

How the data were processed

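Trizol RNA was made into non-stranded messenger RNA libraries, per the labels' protocols. The submitters' processing notes name GRCm38, Cufflinks 2.2.1, STAR 2.7.1a, GATK 4.1.2 and Picard, without their roles. The deposited values are log2 FPKM per gene and heart, per the file headers. Since the lowest value is exactly 0, an added 1 was inferred. Total reads per heart are not given in the sources used here, so the depth behind a value is unknown. The ages are those on the labels of the hearts, although the series text describes treatment up to day 158 for all. Replicates are separate hearts by label.

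The 13487 genes that reached 1 FPKM in 2 or more hearts entered a limma model (version 3.58.1, R 4.3.3) of log2(FPKM + 1) with group means, a day term and a variance trend, over all 9 hearts (5 residual degrees of freedom, 3.07 from the prior). Two-sided p-values were adjusted for all tested genes (Benjamini-Hochberg), and 0.05 was the threshold. Ratios were compared by exact permutation tests in Python 3.11.15. The fit was tested on simulated data. The members and gene lists were chosen with earlier results of these data known, and some lists may have been drawn up after the data were seen. Named are Rpl3l and Rpl3, paralogs with their general forms, stalk proteins, Rpsa, called members, the extremes by level and by change, and up to 3 called genes of each other list, with Eef1a1 and Eef1a2. Alternatives were other pseudocounts, filters, scalings, covariates and sets of hearts. Promoters come from RefSeq (GRCm38.p6), and gene positions from GENCODE M21. The values of 2 genes of these lists are not reported here.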

Additional observations from a re-analysis of the deposited data

How the results depend on the processing

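Of 315 recomputations of the 15 main results, 266 counted as unchanged. For a single gene or a ratio this required the same direction and side of the threshold. For a count of calls it required a limited change in the number. For a core median it required a shift under 0.16, the SD between hearts of a group, whatever the sign. Another 1380 recomputations covered 58 other results, mostly single genes and list counts. By the same rules 1014 were unchanged, 340 lost the call, 9 changed sign and 17 counts moved further. The depth of each heart is unknown, so the precision of low values cannot be judged from counts, and groups of 2 to 4 hearts limit what the tests can call. In all 24 alternatives, 0 members were called for JIB-04 against transgenic vehicle hearts. The cause of the changes below was not tested beyond the smaller number of hearts in some.

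For transgenic vehicle against wild type hearts, 20 members were called with median of ratios, 4 with no term for day, 2 on day 158 hearts alone, and 4 to 13 leaving out 1 heart. Among all tested genes 2518 were higher and 1913 lower with no term for day, and 693 and 524 on day 158 alone. The core median was 0.16 with equal totals, which moved the median of all genes by 0.19, and -0.08 to 0.003 leaving out 1 heart. The log2 ratio of Rpl3l to Rpl3 was -3.75 on day 158 alone (exact p 0.333) and -3.87 to -3.23 leaving out 1 heart (exact p 0.067 to 0.1), sizes that allow no smaller p. Over all transgenic hearts it was -3.82 on day 158 (exact p 0.1). Eef1a2 turned to 0.15 with equal totals, 0.039 with quantile normalization and 0.00075 without transgenic vehicle heart 3, with or without JIB-04 heart 2.

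For JIB-04 against wild type hearts, 12 members were called with no filter, 3 with equal totals, 13 with equal totals leaving out mitochondrial and the 20 highest genes (also without the members), 39 with median of ratios, 7 with quantile normalization, 3 with no term for day, 13 with no variance trend, 1 on day 158 alone, 4 without JIB-04 heart 2 and transgenic vehicle heart 3 (chosen after seeing the data), and 2 to 26 leaving out 1 heart. Calls among all tested genes are given above, except where 1 JIB-04 heart was left. The core median was -0.0029 with equal totals. Rpl3 on day 158 alone was 0.91 (adjusted p 0.059). Rplp0 turned to 0.0016 with quantile normalization.

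For JIB-04 against transgenic vehicle hearts, where no value was called, Rpl3 turned to 0.0057 and 0.0022 in the 2 scalings without the highest genes, 0.011 with quantile normalization and 0.028 without the 2 hearts named above, and Rpl3l to 0.024 with no term for day and 0.17 without those 2 hearts. Leaving out 1 heart gave -0.11 to 0.02 for Rpl3, -0.39 to 0.28 for Rpl3l and -0.53 to 0.66 for their log2 ratio, which was -0.21 on day 158. Between days, Rpl3 turned to -0.040 with equal totals, -0.15 with the replicate block, and -0.025 to 0.098 leaving out 1 heart.

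With the replicate number as a block, 5 members were called for transgenic vehicle against wild type hearts and 2 for JIB-04 against wild type hearts. Among all 13487 tested genes 1385 were then higher and 1073 lower in the first comparison, and 808 and 734 in the second. Rpl10 lost its call in transgenic vehicle hearts (limma adjusted p 0.054). The ribosome production genes called there numbered 16 of 91, a share near that of all tested genes. Deviations of hearts of the same number correlated with r from -0.19 to 0.43, and those of hearts of different numbers with r from -0.43 to 0.36. Deviations of the 2 JIB-04 hearts from their mean are mirror images, so 0.43 and -0.43 are the same value with opposite signs. The number follows the day in part, so this check cannot settle whether it pairs the hearts.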
